A study of Mus musculus with 2 samples.

Results

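Rsrp1, Padi2, Crocc, Szrd1, Zfp933, Miip, Fv1, Clcn6 and Srm are 9 genes near the distal end of mouse chromosome 4 whose RNA differed between single-nucleus libraries of the amygdala from WT and Sema6d-/- (KO) mice. They are 9 of the 32285 genes in the deposited matrices, found there by the gene identifiers that carry these symbols. The list was chosen from measured values of these same 2 libraries, namely the KO to WT ratios, so those ratios are given as a description and support nothing by themselves. Each symbol belonged to 1 identifier, and all 9 genes were annotated as protein coding on chromosome 4 of mm10, with starts between 134.9 and 148.6 Mb, so the label of the group matched their positions.

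The series holds 1 library per genotype, made from amygdala at an age of 6 to 8 weeks, with the strain of both given as C57BL6/J. The KO animals carry a homozygous disruption of Sema6d, a semaphorin gene whose membrane protein guides axons through plexin receptors; the WT animals do not. How many animals were pooled, their sex, the breeding of the KO line and the deleted part of Sema6d are not stated in any source used here. Every difference below is therefore a difference between 1 library and another, and genotype cannot be told apart from animal, dissection or library preparation.

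The 9 genes share a chromosome arm rather than a pathway. Rsrp1 encodes a protein rich in arginine and serine, Padi2 an enzyme that turns protein arginine into citrulline, and Crocc encodes rootletin, which builds the rootlet beneath cilia and links centrioles. Szrd1 encodes a protein with a SUZ RNA-binding domain, Zfp933 a zinc finger protein, Miip a migration and invasion inhibitory protein, Clcn6 an endosomal chloride-proton exchanger found in neurons, and Srm spermidine synthase, a step of polyamine synthesis. Fv1 is a retrovirus restriction gene that arose from the gag gene of an endogenous retrovirus, and it is known for alleles that differ between laboratory mouse strains.

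After filtering, 10369 WT nuclei with 79305700 unique molecular identifiers (UMIs, the molecules counted) and 7911 KO nuclei with 56736373 UMIs remained, with medians of 7196 and 6418 UMIs per nucleus. Marker genes placed 8322 WT and 5197 KO nuclei among neurons, 901 and 672 among astrocytes, 575 and 1181 among oligodendrocytes, 168 and 219 among oligodendrocyte precursors, and 101 and 225 among microglia. A total of 8 neuron subtypes held at least 50 nuclei in each library: D1 and D2 medium spiny, intercalated, Prlr-expressing, MGE-type and CGE-type inhibitory neurons, and claustrum or endopiriform and Pdzrn3-expressing excitatory neurons. These names stand for astrocyte-like, D1-like and so on, since they mean only that a nucleus matched a list of markers. The D2 class was led by Drd2 and Adora2a, the intercalated class by Chst9, Tshz1 and Foxp2, and the oligodendrocyte class by Prr5l, St18, Mog and Mobp, whereas the Pdzrn3 class had 1 of its own markers among its 10 leading genes. Levels are UMIs scaled to a class total of 1000000 (CPM) with exact 95% Poisson intervals, and ratios are log2 of KO over WT with exact 95% binomial intervals. The intervals cover counting error only. Sema6d itself read 637 CPM in WT neurons and 702 CPM in KO neurons (log2 ratio 0.14, 95% interval 0.12 to 0.16), so the targeted gene was not lower in the library labelled KO; without the deleted part of the gene this value does not check the labels.

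In neurons, 5 of the 9 genes were higher in KO (Fv1, Padi2, Srm, Rsrp1 and Clcn6) and 4 were lower (Crocc, Zfp933, Szrd1 and Miip). All 9 had at least 100 UMIs over both libraries and differed by more than 1.5-fold. Across the 15470 genes with at least 100 UMIs, 6.97% passed 1.5-fold, 4.53% higher and 2.44% lower in KO, and since the genes were picked for this contrast nothing is read from their count. With TMM scaling in place of totals the background split was 550 higher and 479 lower, instead of 701 and 378. Fold differences ran from 1.55 for Clcn6, the member nearest the threshold, to 3.59 for Fv1; Mfap2, beside Crocc, lay just outside at a log2 ratio of -0.57. In excitatory neurons 7 of the 8 genes with at least 100 UMIs passed 1.5-fold against 6.56% of genes there, the exception being Clcn6 at a log2 ratio of 0.47. In inhibitory neurons it was 9 of 9 against a background of 6.21%. Astrocytes gave 5 of 6 against 8.06%, and oligodendrocytes 2 of 4 against 9.26%. Markers of other cells also differed in neurons: all 10 microglia markers were higher in KO (summed level 49.3 CPM in WT against 75.9 CPM in KO, none at 0), as were 8 of 10 oligodendrocyte markers (352 and 372 CPM) and 7 of 7 fibroblast markers (4.51 and 8.18 CPM), but 4 of 11 astrocyte markers (966 and 876 CPM). The median mitochondrial share per neuron was 0.666% in WT and 0.286% in KO. The part of the other cells' RNA in the ratios was not tested. Among nuclei with at most 1% mitochondrial UMIs, the neuron ratios of Fv1, Padi2 and Clcn6 were 1.79, 1.32 and 0.68.

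**Figure D1:**
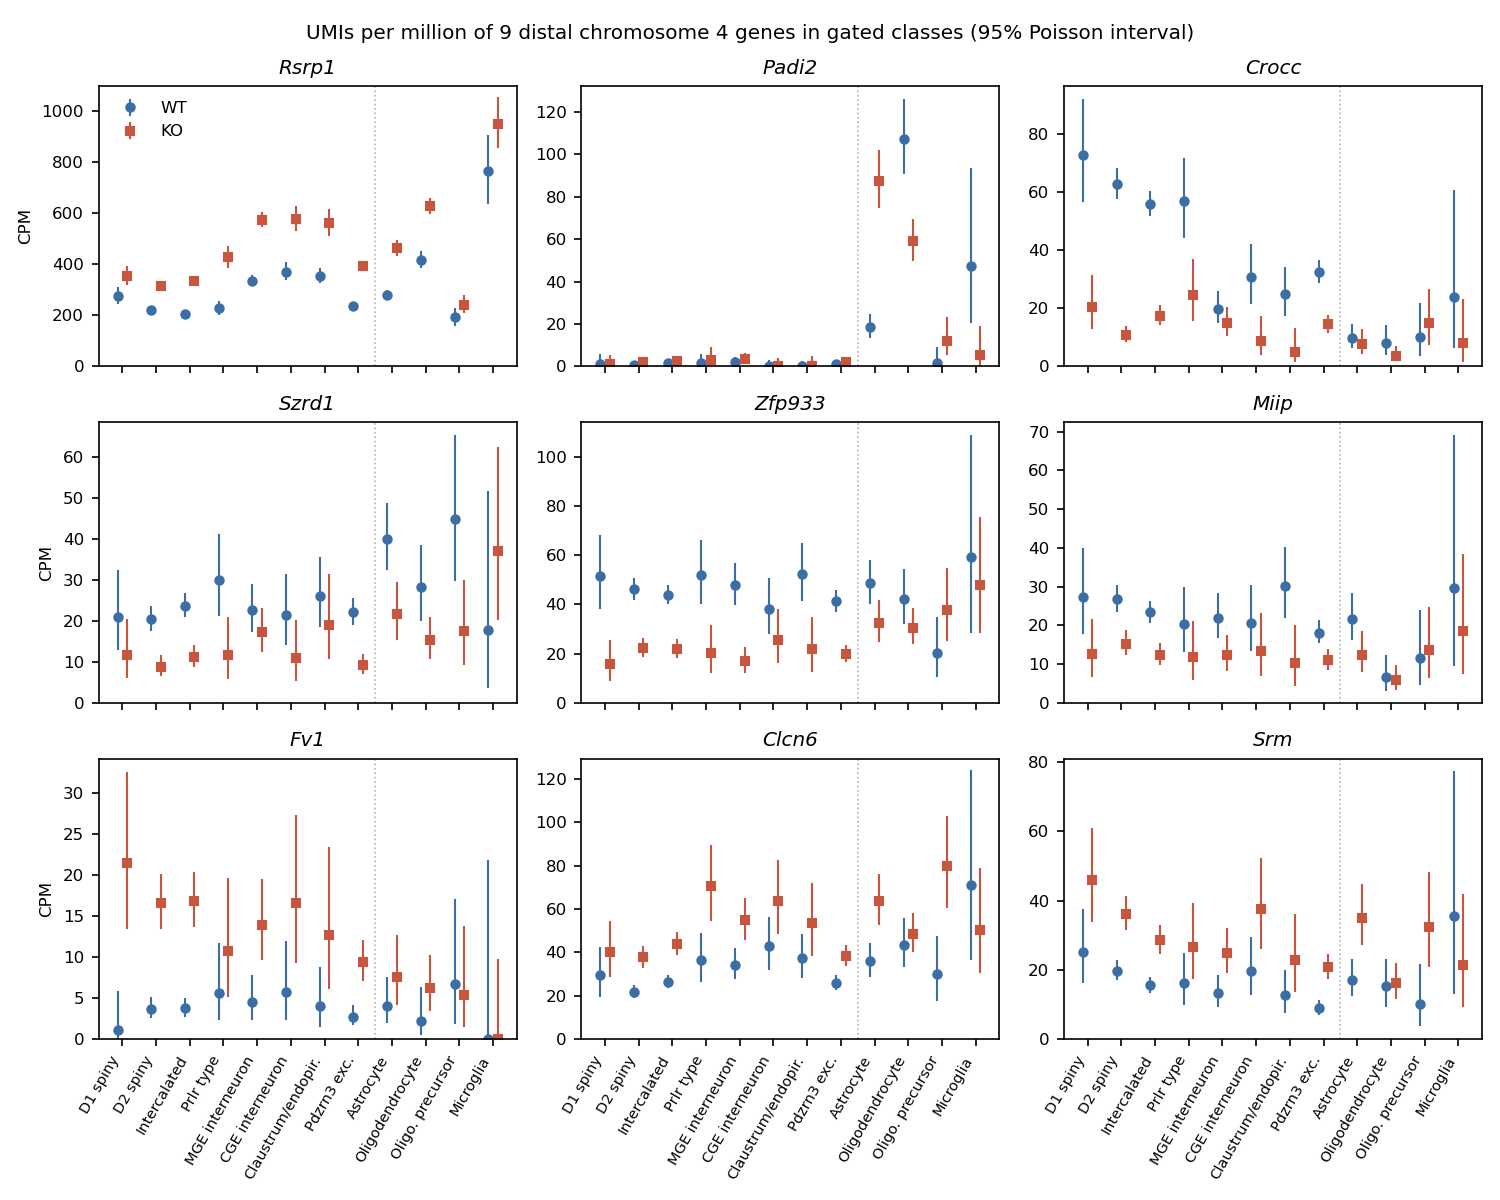
Level of each of the 9 genes (y axis, CPM, linear from 0) in 8 neuron subtypes and, right of the dotted line, 4 glial classes (x axis). Circles are WT and squares KO, 1 library each, with 95% Poisson intervals; Rsrp1 is higher in KO in every class, Crocc is highest in the 4 leftmost neuron subtypes of WT, and Padi2 stays at or below 3.27 CPM in all 8 neuron subtypes.

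Rsrp1 had the most UMIs of the 9 in neurons. It stood at 244 CPM in WT neurons (240 to 247) and 409 CPM in KO neurons (404 to 415), a log2 ratio of 0.75 (0.72 to 0.78). It was higher in KO in all 8 neuron subtypes, from 277 against 353 CPM in D1 medium spiny neurons (log2 0.35, 0.12 to 0.59) to 227 against 426 CPM in Prlr neurons (0.91, 0.69 to 1.14), and in 26 of 26 neuron clusters. The intervals of those extremes do not overlap, so the size of the excess was not the same in every subtype beyond counting error. Among glia, astrocytes read 279 and 464 CPM (0.74, 0.59 to 0.88) and oligodendrocytes 418 and 627 CPM (0.59, 0.45 to 0.73). Microglia had the top level in both libraries, 764 CPM in WT against 949 CPM in KO (0.31, 0.02 to 0.62), and precursors the bottom one, 192 and 242 CPM (0.33, -0.01 to 0.69). Over the 12 classes, log2(CPM + 1) of Rsrp1 in WT and KO had a Pearson r of 0.94. In WT its neighbours in the order of levels overlapped except microglia above oligodendrocytes and MGE neurons above astrocytes.

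Other arginine- and serine-rich proteins act in splicing. Of 26 SR proteins, splicing kinases and related factors, 0 passed 1.5-fold in neurons, where 6.97% of all genes did. The least abundant of the 26, Srsf12, had 1888 UMIs in WT and 1376 in KO. Among all genes with at least 500 UMIs the share was 3.16%, so nothing is read from this count. The median log2 ratio of the 26 was 0.12 against 0.04 over all genes tested. Srrm2, a scaffold of nuclear speckles and the most abundant of them, read 466 CPM in WT against 514 CPM in KO (log2 0.14), and Pnisr read 380 and 397 CPM (0.06). Srsf10, which lies on the same chromosome, had a ratio of 0.46.

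Padi2 is the peptidylarginine deiminase known from brain, where oligodendrocytes express it and myelin basic protein is a substrate. Neurons held little of it, 70 UMIs in WT and 117 in KO (0.966 and 2.36 CPM, log2 1.29, 0.85 to 1.74), with at most 3.27 CPM in any neuron subtype and 0 UMIs of either library in CGE and claustrum neurons. At a limit of 3 counts per library, a count of 0 there allows up to 2.48 CPM in WT against 3.31 CPM in KO CGE neurons. The glial classes carried the signal. WT oligodendrocytes read 107 CPM (90.6 to 126) and KO oligodendrocytes 59.0 CPM (49.8 to 69.6), lower in KO by a log2 ratio of -0.86 (-1.20 to -0.52). Astrocytes went the other way, from 18.4 CPM in WT (13.4 to 24.6) to 87.5 CPM in KO (74.5 to 102), a log2 ratio of 2.25 (1.77 to 2.76). The order of these glia was thus turned between the libraries, with oligodendrocytes above astrocytes in WT and astrocytes above oligodendrocytes in KO, and in neither library did their intervals overlap. Precursors had 1 and 9 UMIs (log2 2.87, 0.01 to 8.32) and microglia 8 and 2 (-3.15, -6.43 to -0.83).

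**Figure D2:**
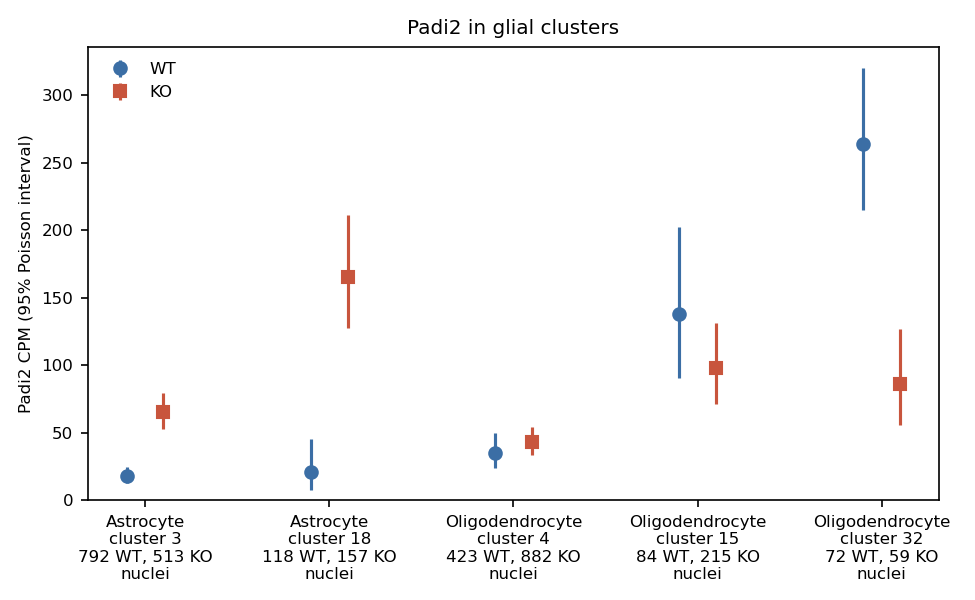
Padi2 level (y axis, CPM, linear from 0, with 95% Poisson intervals) in the 2 astrocyte and 3 oligodendrocyte clusters (x axis, with the nuclei of each library). KO squares lie above WT circles in both astrocyte clusters, and the largest gap in the oligodendrocyte clusters is in cluster 32, at 264 CPM in WT against 85.9 CPM in KO.

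Split by unsupervised cluster, Padi2 was higher in KO in both astrocyte clusters, 17.8 against 65.4 CPM in cluster 3 (1.87, 1.32 to 2.45) and 20.7 against 165 CPM in cluster 18 (3.0, 1.8 to 4.5). The KO library held more of cluster 18, 23.4% of clustered astrocytes against 13% in WT, and with clusters weighted alike the astrocyte ratio was 2.16. Oligodendrocytes were not uniform. Cluster 4, the largest, read 34.9 and 42.8 CPM (0.30, -0.34 to 0.96), cluster 15 read 138 and 97.8 CPM (-0.50, -1.23 to 0.26), and cluster 32, led by 9630013A20Rik, Prom1 and Cemip2, read 264 and 85.9 CPM (-1.62, -2.31 to -0.97). Of these 3 intervals that of cluster 32 alone lay wholly below 0; the cluster made up 12.4% of WT and 5.10% of KO clustered oligodendrocytes. With equal cluster weights the oligodendrocyte ratio was -0.62, and with each nucleus thinned to 1000 UMIs it was -0.26; with nuclei of at most 1% mitochondrial UMIs it was -1.34. The share of nuclei with a Padi2 UMI was 4.77% of WT astrocytes (exact binomial 95% interval 3.47 to 6.38) and 18.9% of KO astrocytes (16.0 to 22.1), beside 0.768% of WT and 1.96% of KO inhibitory neurons, whose median nucleus held 8099.5 and 8490.5 UMIs against 2658 and 2750 in astrocytes.

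Oligodendrocyte RNA was present in the astrocyte class of both libraries. Of 10 oligodendrocyte markers 8 were higher in KO astrocytes, summing to 834 CPM in the WT and 959 CPM in the KO library and none at 0, compared with 21712 and 23818 CPM in oligodendrocytes. In the 426 WT and 362 KO astrocytes without a UMI of Mbp, Mog or Mobp, Padi2 read 23.0 and 83.3 CPM (log2 1.86, 1.19 to 2.57). In the 352 and 259 astrocytes that also lacked Mag, Mal, St18, Prr5l, Opalin and Cldn11, it read 24.9 and 79.8 CPM on 22 and 55 UMIs (1.68, 0.94 to 2.46). In both selections the ratio was smaller than in all astrocytes and above 0 by counting error, and its interval overlapped theirs (1.77 to 2.76). The WT level there was above the 18.4 CPM of all WT astrocytes, and the KO level below the 87.5 CPM of all KO astrocytes. Neuronal RNA was present in glia too. Of 9 pan-neuronal markers 8 were lower in KO astrocytes (summed level 2276 CPM in WT against 1664 CPM in KO). In oligodendrocytes 7 of 9 were lower (2304 and 1637 CPM). In neurons they summed to 23838 and 24397 CPM. The part of oligodendrocyte or neuronal RNA in these and other glial ratios, such as those of Crocc and Miip, was not tested. An antisense gene, Gm13031, overlaps 4921 bases of Padi2; it read 20.4 CPM in WT against 32.9 CPM in KO astrocytes (0.69, 0.13 to 1.26), and in neurons 1.48 and 0.808 CPM (-0.87, -1.43 to -0.33). No source used here states how the counting treated strand, so reads of the pair may not be fully separated. None of the other 4 deiminase genes reached 100 UMIs in neurons.

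Crocc showed the largest shortfall in KO neurons. WT neurons read 50.1 CPM (48.5 to 51.8) and KO neurons 17.2 CPM (16.1 to 18.4), a log2 ratio of -1.54 (-1.65 to -1.43). In WT, 4 of the 8 subtypes stood above the rest, with 72.6 CPM in D1, 62.6 in D2, 56.7 in Prlr and 55.7 in intercalated neurons, against 32.4 in Pdzrn3, 30.6 in CGE, 24.7 in claustrum and 19.7 CPM in MGE neurons. The intervals of intercalated and Pdzrn3 neurons did not overlap, whereas neighbours within each set did. In KO all 8 subtypes lay between 5.09 CPM in claustrum and 24.6 CPM in Prlr neurons, and no neighbouring classes in the KO order were apart beyond counting error. The ratio ran from -2.53 in D2 neurons (565 and 65 UMIs, -2.92 to -2.16) to -0.42 in MGE neurons (53 and 36 UMIs, -1.07 to 0.22), and these intervals do not overlap. Crocc was lower in KO in 26 of 26 neuron clusters. Excitatory neurons gave -1.09 (-1.33 to -0.86) and inhibitory neurons -1.71 (-1.86 to -1.57). Glia held few molecules, 24 and 14 UMIs in astrocytes (-0.37, -1.44 to 0.64) and 11 and 9 in oligodendrocytes (-1.10, -2.55 to 0.31).

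The bases just upstream of Crocc are printed because this gene had the largest shortfall; they run from chr4:141060551-141060700 on the minus strand (RefSeq promoter table, GRCm38.p6), 5' to 3' toward the start, outside any annotated gene, with capitals for the GC box (GGGCGG, which on the opposite strand reads as CCGCCC).
Crocc: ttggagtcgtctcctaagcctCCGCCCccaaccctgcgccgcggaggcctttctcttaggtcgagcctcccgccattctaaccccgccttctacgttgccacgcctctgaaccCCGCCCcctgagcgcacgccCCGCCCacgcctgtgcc
The motifs searched, on both strands, were 5: the CCAAT box (CCAAT), the GC box, an ETS-type motif (CCGGAAG), the E-box (CACGTG) and the TATA box (TATAAA). This stretch held 3 GC boxes. A GC box occurs in 32.7% of the 32851 promoter windows of 250 bases in that table. Of 16 other genes of the rootlet and centrosome linker, 0 passed 1.5-fold in neurons, where 6.97% of all genes did. With so few genes nothing is read from this count. Their median log2 ratio was -0.04 against 0.04 over all genes. Nin, which encodes the centrosomal protein ninein, read 206 and 171 CPM (-0.27) and Akap9 202 and 182 CPM (-0.15).

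Szrd1 lies beyond Necap2 from Crocc and was also lower in KO. Neurons read 24.0 CPM in WT (22.9 to 25.1), against 12 CPM in KO (11.1 to 13), a log2 ratio of -0.99 (-1.13 to -0.86). The levels varied little across WT neuron subtypes, from 20.5 CPM in D2 to 29.96 CPM in Prlr neurons, and no 2 neighbours in the order were apart beyond counting error. Ratios were below 0 in 8 of 8 subtypes, from -1.35 in Prlr (-2.47 to -0.35) to -0.40 in MGE neurons (-1.0 to 0.19), and in 25 of 26 neuron clusters. Among glia the ratio was -0.89 in astrocytes (40.0 and 21.6 CPM), -0.89 in oligodendrocytes (28.3 and 15.3 CPM) and -1.36 in precursors (45 and 17.6 CPM, -2.44 to -0.35), whereas microglia held 3 and 14 UMIs. In astrocytes without a UMI of Mbp, Mog or Mobp it was -0.39 (-1.12 to 0.32), and in those without any of the 9 oligodendrocyte markers named for Padi2 it was -0.23 (-1.04 to 0.56), so the astrocyte difference was no longer past 1.5-fold there. Necap2, the measured gene that lies between Szrd1 and Crocc, read 14.9 CPM in WT against 17.2 CPM in KO neurons (0.20). The 2 genes with lower levels thus flank one that was not lower.

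**Figure D3:**
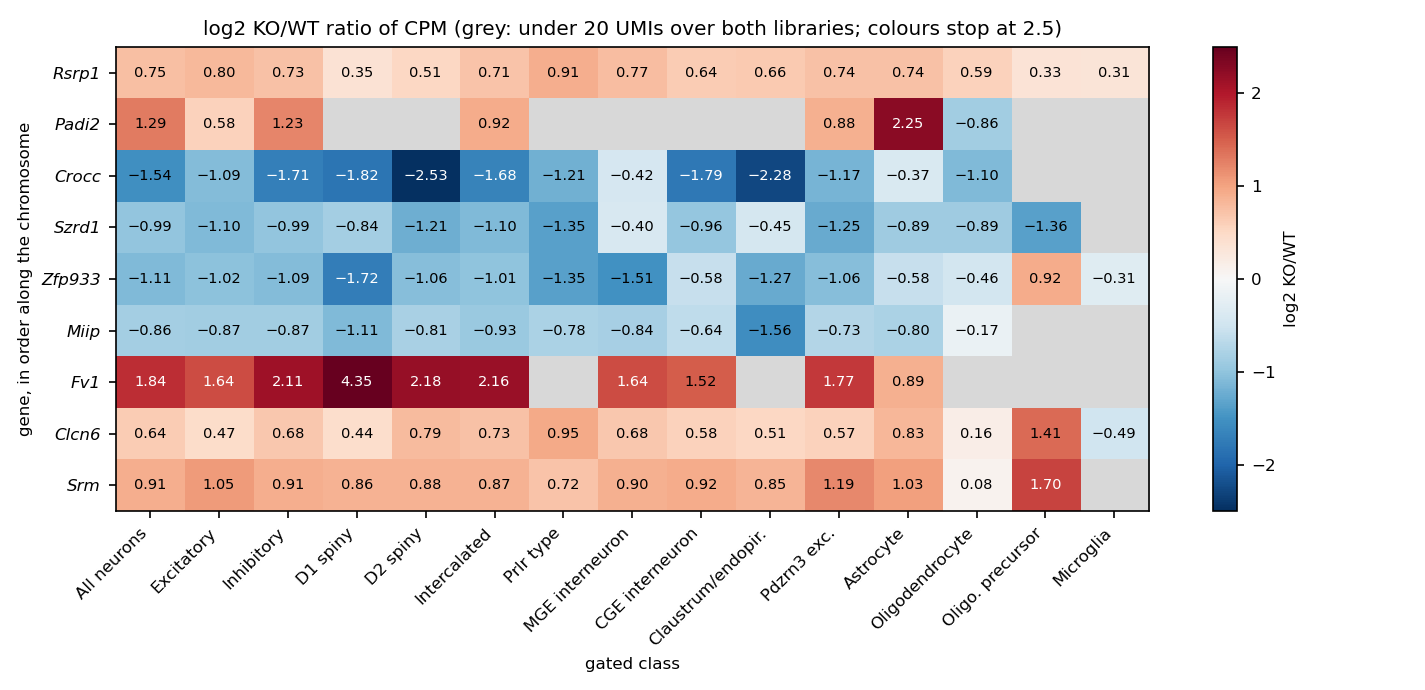
log2 KO/WT ratio of each of the 9 genes (rows, in order along the chromosome) in all neurons, both neuron classes, 8 subtypes and 4 glial classes (columns), printed in each cell; red is higher and blue lower in KO, and colours stop at 2.5. In neurons every filled cell of a row has the same sign, whereas Padi2 changes sign between astrocytes (2.25) and oligodendrocytes (-0.86).

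Zfp933 read 44.9 CPM in WT neurons (43.3 to 46.4) and 20.8 CPM in KO neurons (19.6 to 22.2), a log2 ratio of -1.11 (-1.21 to -1.0). It was lower in 8 of 8 subtypes and 26 of 26 neuron clusters, with ratios from -1.72 in D1 neurons (49 and 16 UMIs, -2.64 to -0.88) to -0.58 in CGE neurons (-1.37 to 0.17). The differences were smaller in glia, -0.58 in astrocytes (48.6 and 32.4 CPM, -1.06 to -0.12) and -0.46 in oligodendrocytes (42.0 and 30.6 CPM, -0.98 to 0.06). In precursors the level was higher in KO, 20.01 and 37.8 CPM on 12 and 28 UMIs, with an interval of the ratio from -0.10 to 2.03 that includes 0. Zfp933 sits in a cluster of zinc finger genes that resemble each other, and of its transcripts' 50-base words only 1.05% occur in annotated transcripts of any other gene.

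Miip and Fv1, whose annotated starts lie 163 bases apart on opposite strands, differed in opposite directions. Miip read 24.4 CPM in WT neurons (23.3 to 25.6) and 13.5 CPM in KO neurons (12.5 to 14.5), a log2 ratio of -0.86 (-0.99 to -0.73). Fv1 read 3.67 CPM (3.24 to 4.14) and 13.2 CPM (12.2 to 14.2), a ratio of 1.84 (1.64 to 2.06). In WT neurons Miip thus had 1767 UMIs to 266 of Fv1, and in KO neurons 667 to 653. The whole stretch between the annotated genes, 162 bases at chr4:147868817-147868978, is printed because it borders the annotated starts of both. It reads 5' to 3' on the strand of Fv1, with the annotated start of Miip at its left end. These are limits of the annotation. The promoter windows of Miip place its start inside the annotated gene, and where transcription starts was not tested.
Miip-Fv1: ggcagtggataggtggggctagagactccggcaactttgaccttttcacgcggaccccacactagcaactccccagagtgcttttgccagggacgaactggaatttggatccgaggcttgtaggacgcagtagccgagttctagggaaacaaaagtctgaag
It held none of the 5 motifs searched, and so no capitals. The promoter windows of both genes cover bases outside this stretch, and they did hold motifs. The window of Fv1 held 1 CCAAT box. Miip had 2 windows. Window 1 held 1 CCAAT box, and window 2 held 4 CCAAT boxes, 2 GC boxes and 1 ETS-type motif. The printed stretch alone therefore does not show that these promoters lack the motifs.

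Fv1 was higher in KO in each of the 6 neuron subtypes with at least 20 UMIs, among them D2 neurons (3.66 and 16.5 CPM, 2.18, 1.59 to 2.79) and intercalated neurons (3.75 and 16.8 CPM, 2.16, 1.64 to 2.70; 1.37 where nuclei were classed by cluster). D1 neurons held 1 UMI in WT and 22 in KO (4.35, 1.72 to 9.72). Inhibitory neurons gave 2.11 (1.85 to 2.38) and excitatory neurons 1.64 (1.12 to 2.18), and the intervals overlap. Of 22 neuron clusters with at least 10 UMIs, 21 were higher. Glia were near the limit of detection, 10 and 14 UMIs in astrocytes (0.89, -0.39 to 2.22), 3 and 15 in oligodendrocytes (1.51, -0.31 to 3.94), 4 and 4 in precursors and 0 in microglia of both libraries, which at the same limit of 3 counts allows up to 17.8 CPM in WT against 7.98 CPM in KO. Miip was lower in 8 of 8 subtypes, from -1.56 in claustrum neurons (30.1 and 10.2 CPM, -2.86 to -0.46) to -0.64 in CGE neurons (-1.77 to 0.41), and in 25 of 26 clusters. In astrocytes Miip read 21.6 and 12.4 CPM (-0.80, -1.57 to -0.07) and in oligodendrocytes 6.52 and 5.78 CPM (-0.17, -1.48 to 1.22). Next to Fv1 on its other side, Mfn2, which encodes the mitochondrial fusion protein mitofusin 2, read 33.8 and 29.9 CPM in neurons (-0.17).

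Of a list of 18 other symbols of genes that restrict or sense retroviruses, 15 were matched and 7 had at least 100 UMIs in neurons. Tetherin, one of the unmatched symbols, is another name of Bst2, which was also listed. Of the 7 measured, 1 passed 1.5-fold, where 6.97% of all genes did, and with so few genes nothing is read from this count. It was the restriction factor Trim30a, on 42 and 133 UMIs (0.580 and 2.69 CPM, log2 2.21). Adar, the RNA-editing enzyme and the most abundant of them, read 124 and 102 CPM (-0.28) and Setdb1, a histone methyltransferase that silences retroelements, 57.2 and 58.3 CPM (0.03). The median of the list was 0.03, against 0.04 over all genes tested.

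Clcn6 read 29.5 CPM in WT neurons (28.2 to 30.7) and 45.8 CPM in KO neurons (43.9 to 47.7), a log2 ratio of 0.64 (0.55 to 0.72) that was just past 1.5-fold and just short of it with TMM scaling (0.58) or median-of-ratios scaling (0.57). It was higher in KO in 8 of 8 subtypes, from 0.44 in D1 neurons (29.4 and 40.0 CPM, -0.29 to 1.19) to 0.95 in Prlr neurons (36.4 and 70.5 CPM, 0.38 to 1.53), and in 24 of 26 neuron clusters. Precursors read 30.01 and 79.7 CPM (1.41, 0.63 to 2.26) and astrocytes 35.9 and 63.7 CPM (0.83, 0.42 to 1.24). Oligodendrocytes differed little, 43.5 and 48.7 CPM, and the interval of their ratio, -0.30 to 0.64, includes 0. Among the 9 genes with at least 100 UMIs on a list of CLC channels, exchangers and their partners, Clcn6 alone passed 1.5-fold, where 6.97% of all genes did. With so few genes nothing is read from this count. Clcn3 read 121 and 130 CPM (0.10) and Clcn4 48.8 and 52.2 CPM (0.10).

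The 150 bases just upstream of Clcn6 are printed to set beside the Miip-Fv1 stretch; they lie at chr4:148038822-148038971 on the minus strand, 5' to 3' toward Clcn6, with capitals for the E-box CACGTG.
Clcn6: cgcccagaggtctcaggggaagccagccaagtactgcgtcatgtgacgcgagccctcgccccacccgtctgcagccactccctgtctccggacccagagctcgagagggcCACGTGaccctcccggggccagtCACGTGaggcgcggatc
It held 2 E-boxes; 6.02% of promoter windows hold at least 1. The first windows of 8 of the 9 genes were in the table, and of these 5 held a GC box, 4 a CCAAT box, 2 an E-box, 2 the ETS-type motif and 0 a TATA box, against 32.7%, 33.9%, 6.02%, 6.91% and 12.4% of all windows. Miip and Fv1 were among the 4 genes with a CCAAT box. No motif was common to all 8.

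Srm read 15.1 CPM in WT neurons (14.2 to 16.0) and 28.3 CPM in KO neurons (26.8 to 29.8), a log2 ratio of 0.91 (0.79 to 1.02). Between subtypes the ratio ran from 0.72 in Prlr (16.2 and 26.7 CPM, -0.19 to 1.65) to 1.19 in Pdzrn3 neurons (9.06 and 20.7 CPM, 0.77 to 1.63), and Srm was higher in 8 of 8 subtypes and 25 of 26 clusters. Astrocytes gave 1.03 (17.1 and 35.1 CPM, 0.45 to 1.63) and precursors 1.70 on 6 and 24 UMIs (0.37 to 3.28). In oligodendrocytes Srm stood at 15.2 and 16.1 CPM (0.08, -0.72 to 0.92). Of 20 other genes of polyamine metabolism with at least 100 UMIs in neurons 1 passed 1.5-fold, where 6.97% of all genes did. This count is near that share, so nothing is read from it. The gene was Paox, a polyamine oxidase, on 122 and 147 UMIs (1.68 and 2.97 CPM, 0.82). Mat2a, which makes S-adenosylmethionine, read 148 and 141 CPM (-0.07), Atp13a3, a polyamine transporter, 84.2 and 92.0 CPM (0.13), and Sms, the next synthase after Srm, 53.6 and 67.5 CPM (0.33). The median of the 20 was 0.14, against 0.04 over all genes.

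In oligodendrocytes several of the 9 genes stood nearer to equal levels. There Srm, Clcn6 and Miip had ratios of 0.08, 0.16 and -0.17 and Padi2 was lower in KO, while Rsrp1 and Szrd1 kept ratios of 0.59 and -0.89. For Srm, the oligodendrocyte interval (-0.72 to 0.92) overlaps that of neurons (0.79 to 1.02). The intervals also overlap for Clcn6 (-0.30 to 0.64 against 0.55 to 0.72) and Miip (-1.48 to 1.22 against -0.99 to -0.73). Overlap alone does not decide whether these classes differ, and the difference was not tested. In WT, across the 9 genes, 4 of 99 pairs of neighbouring classes in the order of levels had intervals that did not overlap, and in KO 5 of 99, all of them in Rsrp1, Padi2 and Crocc. The other 6 genes had no such pair.

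Genes whose pattern over the 12 classes of WT came closest were found for 8 of the 9, Clcn6 aside, from log2(CPM + 1), among genes with at least 500 UMIs; the values describe 12 classes of 1 library. They were U2af1, Eif3j1 and Mcoln1 for Rsrp1 (top Pearson r 0.95), Ppia, Ddit4 and Ncor1 for Padi2 (0.97), Catspere2, Gm15155 and Zdbf2 for Crocc (0.95) and Tyw5, Gm26618 and Scaper for Szrd1 (0.97). For Zfp933 they were Zfp622, Rnf14 and Atp6v1d (0.94), for Miip Ano8, Esrra and Zdhhc18 (0.89), for Fv1 Trim62, Rab28 and Ints2 (0.96) and for Srm Ccnh, Vps29 and Dnajc2 (0.95). None of these genes is another of the 9. Set against its own pattern in KO, the WT pattern had an r of 0.94 for Rsrp1, 0.80 for Padi2, 0.71 for Miip, 0.62 for Crocc, 0.60 for Fv1, 0.35 for Clcn6, 0.27 for Srm, 0.14 for Szrd1 and -0.27 for Zfp933; the microglia and precursor classes have few UMIs and weigh as much as any other class.

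**Figure D4:**
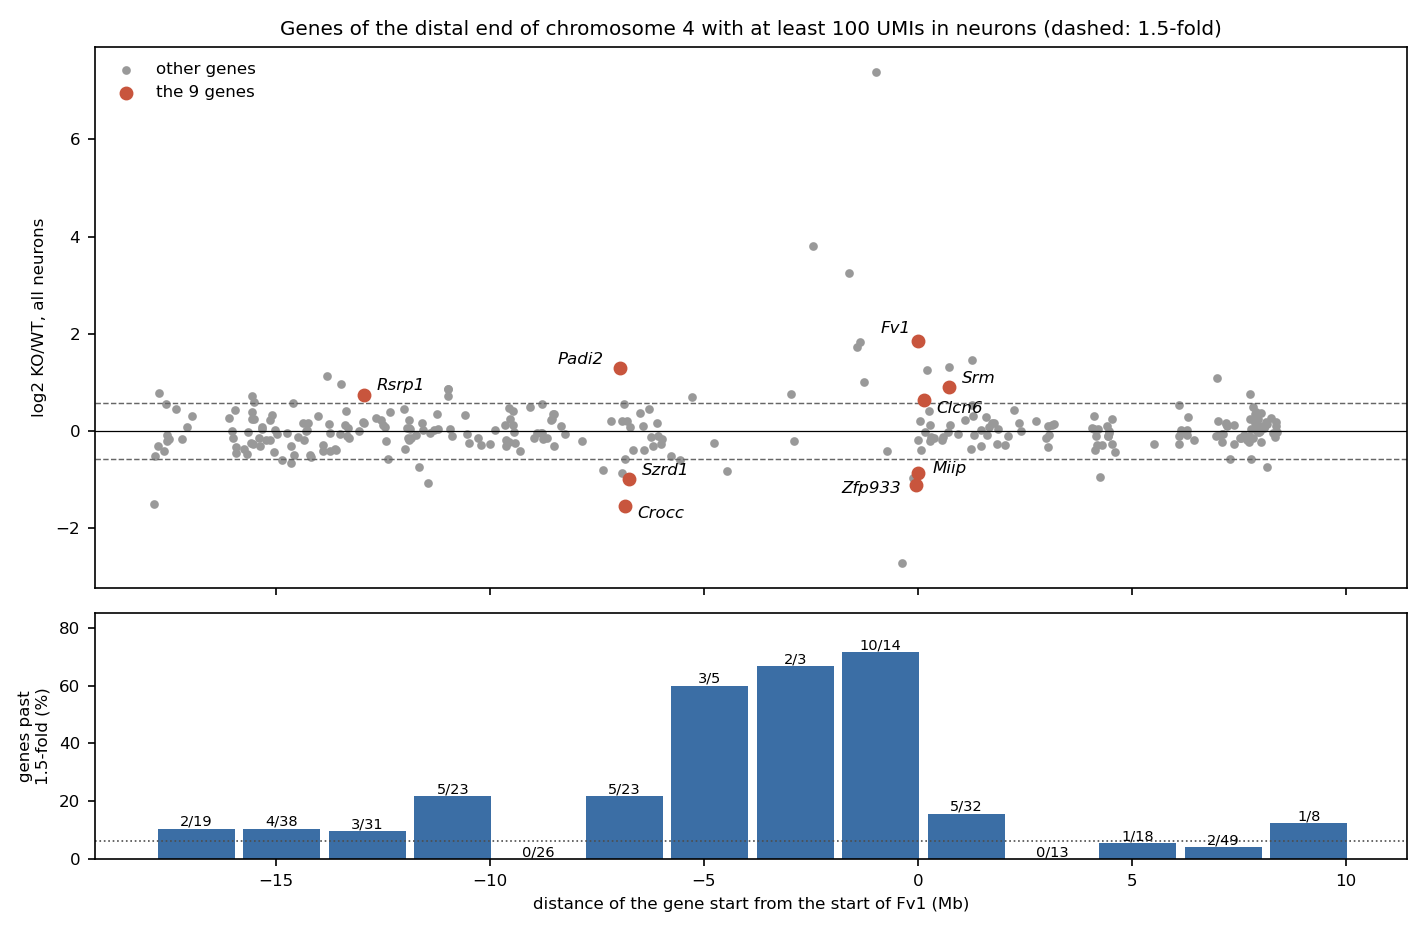
Top, log2 KO/WT in all neurons (y axis) of the 302 distal chromosome 4 genes with at least 100 UMIs, by distance of the gene start from the start of Fv1 (x axis, Mb); named points are the 9 genes and dashed lines mark 1.5-fold. Bottom, percent of genes past 1.5-fold in 2-Mb bins, with counts; the dotted line is the median of 6.25% over 604 bins of the genome, and the bin that holds Fv1 has 10 of 14.

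The 9 genes were not evenly spread. Rsrp1 stood alone at 134.9 Mb, Padi2, Crocc and Szrd1 lay within 140.9 to 141.1 Mb, and Zfp933, Miip, Fv1, Clcn6 and Srm within 147.8 to 148.6 Mb. From 130 Mb to the end of the chromosome, 43 of 302 genes passed 1.5-fold in neurons (14.2%), and 34 of 293 without the 9 (11.6%). Earlier on chromosome 4 the share was 6.69% and on the other chromosomes 6.84%. The bin from 146 to 148 Mb ranked 1 of 604 bins with at least 10 genes, with 10 of 14 genes past 1.5-fold, or 7 of 11 (63.6%) when Zfp933, Miip and Fv1 are left out. The next bin of the genome, on chromosome 17 from 30 to 32 Mb, had 9 of 22. Among the other genes past 1.5-fold in the 146 to 148 Mb bin were Gm21411, Gm13166, Zfp981, Zfp992, Zfp984 and Zfp982. Of the 50-base words of Zfp982, 11.9% occur in other genes' transcripts. For the rest of these named genes many words do, so their counts, and with them the share and rank of this bin, are uncertain. The bins that hold the other members were less full, 5 of 23 from 140 to 142 Mb, 5 of 32 from 148 to 150 Mb and 3 of 31 from 134 to 136 Mb, and from 138 to 140 Mb it was 0 of 26. From 142 to 144 Mb, with few genes measured, it was 3 of 5, and from 144 to 146 Mb 2 of 3.

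Of the 13 measured genes that lie nearest to the 9, 3 passed 1.5-fold, Gm13031 at -0.87, Zfp984 beside Zfp933 at -0.96 and Masp2 beside Srm at 1.32. The other 10 did not, among them Tmem50a (0.18) and Syf2 (0.16) on each side of Rsrp1, Rcc2 (0.22) before Padi2, Mfap2 (-0.57) beside Crocc, Fbxo42 (0.09) beside Szrd1, 2510039O18Rik (-0.39) beside Clcn6 and Exosc10 (-0.01) beside Srm. The 12 other distal genes with the largest ratios were led by Gm21411, with 1 UMI in WT and 115 in KO neurons (7.39, 4.89 to 12.71), Platr16 with 10 and 96 (3.81), Gm13166 with 28 and 181 (3.24) and Zfp982 with 164 and 17 (-2.72). Zfp981 (1.83), Zfp992 (1.73), Cenps (1.46), Masp2 (1.32), Agtrap (1.26), Crybg2 (1.13) and Gm13112 (1.08) were higher in KO and Gm12963 (-1.50) lower. Several of these belong to families of near-identical copies, and their counts are uncertain: 54.5% of the 50-base words of Zfp984, 65.8% of those of Gm21411, 70.5% of those of Gm13166, 43.0% of Zfp992, 40.0% of Zfp981 and 39.3% of Platr16 occur in other genes' transcripts. The 9 genes themselves shared at most 2.01% (Srm), and 6 of them shared 0. C1qa, C1qb and C1qc were also past 1.5-fold on the same arm. C1qa and C1qb, but not C1qc, are on the list of microglia markers, of which all 10 were higher in KO neurons.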

How the data were processed

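Single nuclei of 2 samples were sequenced in droplets (10x 5' kit, version 2), per the labels. The deposited matrices hold raw UMI counts per gene and barcode (32285 genes, whole numbers), made by the authors with Cell Ranger 6.0.0 on mm10, per the submitters' processing notes; no source used here gives the annotation or intron settings. Symbols came by identifier for 32158 genes. Barcodes under 500 genes or over 5% mitochondrial UMIs were left out (12 and 259 in WT, 143 and 428 in KO), as were doublets called by scrublet (scanpy 1.11.5; 422 and 222); 128 barcodes occur in both libraries. Each nucleus was gated on lists of markers (pan-neuronal score at least 0.4; 211 nuclei lay near that limit and 631 near the excitatory-inhibitory one), and Leiden clusters (resolution 1.0, 45 clusters) gave a second grouping. Counts were summed per class and library and scaled to CPM. With 1 library per genotype there is no test, and the ratio threshold was 1.5-fold with at least 100 UMIs. The members and lists were chosen with earlier results of these data known, and the gate scoring was set after seeing the data. Named besides the 9 were the nearest measured genes, the 12 largest distal ratios, the 3 genes of closest pattern per member, and list genes past 1.5-fold or among the 2 most abundant; Srsf10 and Sms were chosen after their values were seen, as were C1qa, C1qb and C1qc. Positions are from a GENCODE annotation of GRCm38 (mm10) and promoters from RefSeq. A few results are not reported here, among them a further selection of astrocytes in which the Padi2 ratio was smaller than those printed. Ratios and intervals were tested on simulated Poisson counts, which hold counting error only, as the intervals assume. That simulation says nothing of variation between nuclei, animals or libraries. Alternatives covered class, scaling, nucleus filters, doublets, depth, subtype and cluster weights, shared barcodes, and astrocytes without oligodendrocyte markers.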

Additional observations from a re-analysis of the deposited data

Results flagged for a closer look

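Padi2 differed in opposite directions in different cell classes. Its log2 KO/WT ratio was 2.25 in astrocytes and 2.18 in D2 medium spiny neurons (4 and 12 UMIs, 0.443 and 2.004 CPM), and -0.86 in oligodendrocytes. In astrocytes without a UMI of 9 oligodendrocyte markers the ratio was 1.68. Each interval lay on its own side of 0 by counting error alone. With 1 library per genotype, the difference between the classes was not tested.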

How the results depend on the processing

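No paired analysis was possible because each genotype has 1 library. Across the alternatives run, none of the 645 recomputed ratios of a gene past 1.5-fold with at least 100 UMIs changed sign. Each of these ratios was past 1.5-fold to begin with and was recomputed from the same 2 libraries, so a kept sign is no independent support. Of the 645, 35 left the 95% interval of the reported ratio, 15 of them when thinning to 1000 UMIs is set aside. In all neurons the ranges over 11 alternatives were -1.60 to -1.45 for Crocc, 1.78 to 1.90 for Fv1 and 1.23 to 1.77 for Padi2. Thinning gave -0.26 for Padi2 in oligodendrocytes (reported -0.86) and 0.72 for Fv1 in D2 neurons (reported 2.18). Leaving out the 224 nuclei with a barcode found in both libraries, the glial cluster weights, and the astrocytes without oligodendrocyte markers were chosen after seeing the data. The count of all genes past 1.5-fold in neurons, 1079, was 2506 with at least 20 UMIs, 374 with at least 500 UMIs, 208 at 2-fold and 459 after thinning. The distal chromosome 4 count, 43, became 78, 19, 18 and 19 in the same order, and the count of the 9 genes was 4 at 2-fold (Padi2, Crocc, Zfp933 and Fv1). With fewer UMIs per gene, small counts pass a fold more easily; depth limits what can be said in precursors and microglia, where most of the 9 genes had under 20 UMIs in WT.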

Other observations

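Sema6d itself lies on chromosome 2, from 124.1 to 124.7 Mb. In the bin that holds its start (124 to 126 Mb), 2 of 15 genes with at least 100 UMIs in neurons passed 1.5-fold, Slc24a5 and Shc4. In the bin before it (122 to 124 Mb) it was 4 of 10, Sord, Gatm, Spata5l1 and 4930417H01Rik, which ranked 3 of the 604 bins, level with a bin of chromosome 6 (6 of 15).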
